A study of Mus musculus with 12 samples.

Results

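The genes described here make, bind, sense and degrade hyaluronan in the abdominal aorta. They were chosen by symbol as 9 of the 55092 rows of the expression table: the hyaluronan synthases Has1, Has2 and Has3, the matrix genes Vcan, Hapln1 and Tnfaip6, the receptor gene Cd44, and the hyaluronidases Hyal1 and Hyal2. RNA-Seq libraries came from the abdominal aortas of 12 male mice, 3 in each of 4 groups. Every mouse carried CCN2-floxed alleles, and every mouse was given 5 doses of tamoxifen at 8 weeks of age, followed by 2 weeks without it. Mini-osmotic pumps then delivered saline or Ang II at 500 ng/kg/min, and aortas were taken at day 7. CFS and CFA denote CCN2fl/fl mice, which lack Cre, after saline or Ang II. CSS and CSA denote CCN2SMC∆ mice, which carry Myh11-Cre-ERT2, after saline or Ang II. That Cre is driven by a smooth muscle promoter, so cells outside smooth muscle kept Ccn2, and no group carried Cre with unfloxed Ccn2.

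Hyaluronan is a very large, unsulfated sugar polymer that is spun out through the plasma membrane by the synthases rather than built on a core protein. Versican, the large chondroitin sulfate proteoglycan of the vessel wall, binds it through its link domain, HAPLN1 locks the pair together, and the product of Tnfaip6 (TSG-6) moves heavy chains from inter-α-inhibitor onto it. CD44 is its main surface receptor on leukocytes and stromal cells, while HYAL2 at the cell surface and HYAL1 in lysosomes cut it down. In arteries this matrix is known for swelling the wall and for holding leukocytes after injury.

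The members differed most between CSA and the other groups. In CSA aortas Cd44 was 4.06-fold and Has2 5.51-fold above CFA, while Hapln1 was 13.8-fold and Hyal1 8.88-fold below it (ratios of mean FPKM, n = 3 mice a group). Vcan gave no difference larger than its scatter. Under saline, and between CFA and CFS, none of the members passed the test. FPKM counts the fragments of a gene relative to its transcript length and to the size of the library. A gene was called when limma's Benjamini-Hochberg adjusted p across 14676 tested genes was below 0.05 and its log2 fold change, on log2(FPKM + 0.1), exceeded 1.5 in size. The mice are separate animals by their labels, so the errors cover differences between animals.

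Whole-library facts are given first. The deposited values led back to 14558580 to 23107807 fragments a library. The targeted gene Ccn2 read 710, 1108 and 480 FPKM in CFS, 436, 640 and 587 in CSS, 1013, 1105 and 564 in CFA, and 255, 331 and 399 in CSA. CSA lay below CFA in every mouse (log2 fold change -1.41 ± 0.34 SE, adjusted p = 0.00622, limma; two-sided exact permutation p = 0.1, the smallest that 3 against 3 allows), but CSS and CFS overlapped (log2 fold change -0.40, adjusted p = 1, limma; exact permutation p = 0.4). Smooth muscle markers (Acta2, Myh11 and others) had a summed level of 5610 to 10419 FPKM in the CFS, CSS and CFA mice, so the labelled tissue was rich in them there, and of 814 to 970 FPKM in CSA, with 8 of 8 called lower in CSA than in CFA. Macrophage and monocyte markers summed to 284 to 584 FPKM in CFA and 1996 to 2062 FPKM in CSA (8 of 9 called higher, 1 of which met the level limit of the test, at least 1 FPKM in 3 libraries, only with CSA libraries), neutrophil markers to 11.01 to 27.96 and 512 to 564 FPKM (6 of 6 tested called higher, 3 of which met that limit only with CSA libraries), and fibroblast markers to 2952 to 3273 and 4599 to 5460 FPKM (0 of 8 called higher, 1 called lower). Beside these counts, 8.95% of all tested genes were called higher and 8.27% lower in CSA against CFA. The fibroblast counts lay near those shares. Fibroblast log2 fold changes had both signs, which the sum does not show. They were 1.44 for Lum, 0.96 for Col1a1, 0.79 for Col1a2, 0.54 for Dcn and 0.38 for Pdgfra. For Dpt, Pi16 and Col15a1 they were -1.13, -1.17 and -1.62. In bulk tissue fewer cells of a type and less RNA per cell cannot be told apart, and the part of these shifts in each result below was not tested. CSA mouse 03 stood apart from CSA mice 01 and 02, with a root mean square log2 distance of 1.213 and 1.199 against 0.505 between the other two.

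Promoter stretches are shown for Cd44 and Hyal1, which carried called changes of opposite sign, and for Tnfaip6, where a searched motif was found. Of the 9 members, 7 had an entry in the RefSeq promoter table (GRCm38.p6), Has2 and Has3 being the others. Only the bases that overlap no annotated exon are printed, which leaves none for Hapln1. The Cd44 stretch is chr2:102901666-102901915 on the minus strand, the Hyal1 stretch chr9:107576700-107576926 on the plus strand and the Tnfaip6 stretch chr2:52037863-52038008 on the plus strand. Each is written 5′ to 3′ in the direction of transcription, and capitals mark an AP-1 match.
Cd44: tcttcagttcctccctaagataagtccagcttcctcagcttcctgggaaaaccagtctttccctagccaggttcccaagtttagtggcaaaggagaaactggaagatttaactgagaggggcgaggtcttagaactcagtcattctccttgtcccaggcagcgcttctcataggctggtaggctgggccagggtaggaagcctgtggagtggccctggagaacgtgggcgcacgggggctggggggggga
Hyal1: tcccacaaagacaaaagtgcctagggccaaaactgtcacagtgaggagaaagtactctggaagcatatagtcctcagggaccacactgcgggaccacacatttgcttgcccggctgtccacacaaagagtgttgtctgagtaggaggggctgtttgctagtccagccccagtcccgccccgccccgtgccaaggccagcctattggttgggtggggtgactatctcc
Tnfaip6: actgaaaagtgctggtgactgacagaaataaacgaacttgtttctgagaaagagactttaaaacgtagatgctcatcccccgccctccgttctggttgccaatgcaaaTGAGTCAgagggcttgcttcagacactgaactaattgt

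In the 250 bases before each start, 4 motifs were searched on both strands: AP-1 as TGANTCA, NF-kB as GGG, any 2 bases, TT, any base and CC, TEAD as GGAATG and a TATA box as TATAAA. Tnfaip6 held AP-1 at 142 to 136 bases before its start, read on both strands because TGAGTCA fits the letters either way, and TEAD at 8 to 3 bases before it, inside the part not printed. Hyal2 held NF-kB at 238 to 229 and TEAD at 229 to 224 bases before its start, sharing 1 base. Starts here are those of the promoter table, which can differ from the gene positions given below. The windows of Hyal2 (chr9:107568913-107569162) and Hapln1 lie inside those gene spans. Those of Tnfaip6, Has1 and Hyal1 reach into them. Has1, Vcan, Hapln1, Cd44 and Hyal1 held none of these letters in that window. Among all 32851 promoters of the table, AP-1 occurred in 6.75%, NF-kB in 4.11%, TEAD in 12.6% and the TATA box in 12.4%. These matches describe letters only.

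Among the synthases, Has2 rose in CSA while Has3, the main synthase transcript of the saline aortas, did not follow it. Has2 (ENSMUSG00000022367, chr15:56665627-56694539, minus strand, GRCm38) encodes the synthase that makes long hyaluronan chains and is required for heart development. It read 0.434, 0.189 and 0.520 FPKM in CFS mice 68, 69 and 70, and 0.305, 0.242 and 0.163 FPKM in CSS mice 54, 55 and 56. It read 0.347, 0.489 and 0.334 FPKM in CFA mice 71, 72 and 74, and 2.30, 1.65 and 2.50 FPKM in CSA mice 01, 02 and 03. Every CSA mouse was above all 9 others. Among those, CFS overlapped both CSS and CFA, while the CSS mice lay below the CFA mice. Against CFA the log2 fold change was 2.19 ± 0.38 SE with an adjusted p of 0.000902 (limma), and against CSS it was 2.74 ± 0.38 (adjusted p = 0.000158). Has2 reached 1 FPKM in the CSA libraries alone, so it met the level limit of the test only through the group where it was high. The values rest on 15 to 44 recovered fragments in the other mice and 148 to 198 in CSA. Of its exonic bases, 4.30% are shared with the antisense gene Has2os, which averaged 0.824 FPKM in CFA and 1.43 FPKM in CSA, and the sources used here do not say whether counting used the strand.

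Has1 (ENSMUSG00000003665, chr17:17843323-17855205, minus strand), a synthase with a lower affinity for its sugar substrates, was scattered within each group. CFS mice read 0.120, 0.308 and 0.128 FPKM, and CSS mice 0.250, 0.394 and 0.0915 FPKM. CFA mice read 0.366, 1.51 and 0.188 FPKM, and CSA mice 1.87, 1.27 and 0.679 FPKM. All 3 CSA values exceeded all 6 saline values, but CFA mouse 72 lay inside the CSA range. The difference from CFA was 1.10 on the log2 scale with a 95% interval of -0.38 to 2.57 (adjusted p = 0.217, limma), and without CFA mouse 72 it was 1.81 (adjusted p = 0.0375). That mouse also had the highest summed macrophage markers of CFA, 584 against 306 and 284 FPKM. Against CSS, Has1 rose by 1.998 ± 0.67 SE (adjusted p = 0.0299, limma), a call that was lost when CSS mouse 54 or 56 or CSA mouse 01 or 02 was left out, and with a pseudocount of 1, where the value was 0.84. Has1 met the level limit through CFA mouse 72 and CSA mice 01 and 02, and its saline values rest on 9 to 33 fragments.

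Has3 (ENSMUSG00000031910, chr8:106870242-106884566, plus strand), which makes shorter chains, never reached 1 FPKM and was not part of the main test. It read 0.772, 0.645 and 0.900 FPKM in CFS, 0.902, 0.693 and 0.598 in CSS, 0.424, 0.982 and 0.606 in CFA, and 0.355, 0.406 and 0.460 in CSA. The CSA values lay below all saline values and overlapped CFA at mouse 71. With no limit on level, the log2 fold change of CSA against CFA was -0.54 ± 0.30 SE (adjusted p = 0.268, limma). Chtf8 on the opposite strand shares 5.52% of its exonic bases.

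The make-up of the synthase transcripts is given as a description with no test. Has3 made up 56.5% to 58.2% of summed synthase FPKM in CFS, 52.2% to 70.2% in CSS and 32.9% to 53.7% in CFA, but 7.84% to 12.7% in CSA. Has2 made up 49.5% to 68.7% in CSA and at most 33.6% in any other mouse. The sum of the 3 synthases was 0.852 to 1.55 FPKM in the saline mice, 1.13 to 2.98 FPKM in CFA and 3.33 to 4.53 FPKM in CSA.

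**Figure D1:**
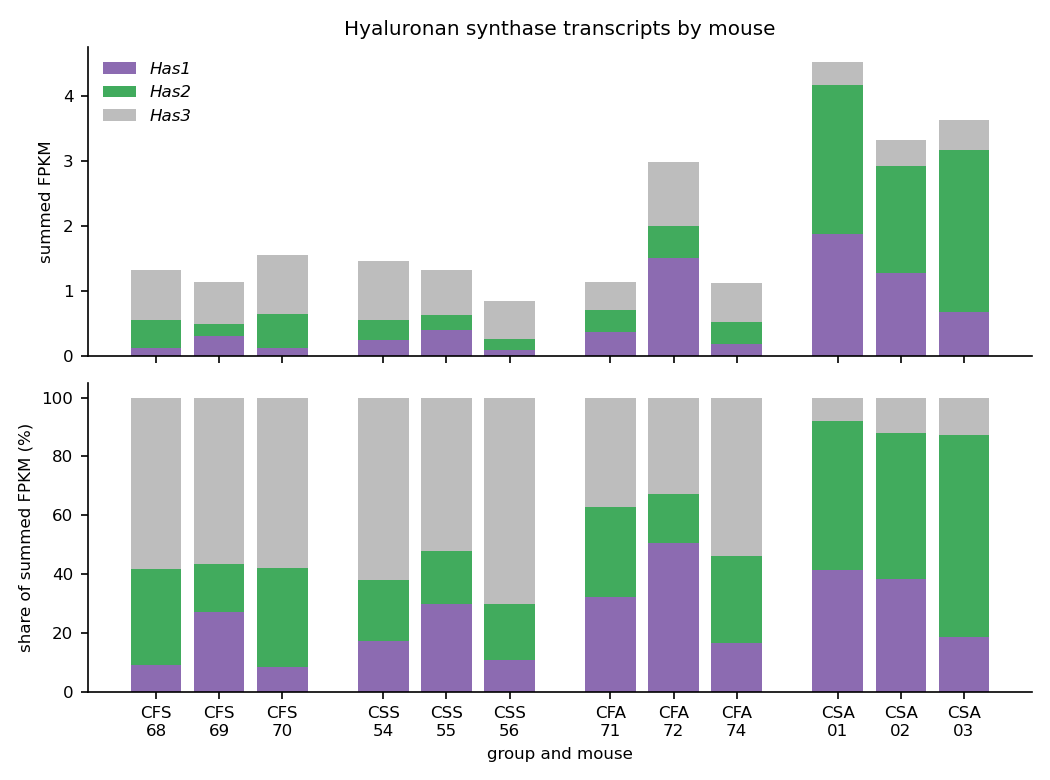
Summed FPKM of Has1, Has2 and Has3 in each of the 12 mice (upper bars) and the share of each in that sum in percent (lower bars), with mice arranged by group. Has3 is the largest share in all 6 saline mice, and Has2 in all 3 CSA mice, where Has3 is 7.84% to 12.7%.

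Among the hyaluronan-binding matrix genes, Hapln1 fell steeply in CSA, whereas for its partner Vcan the groups overlapped. Hapln1 (ENSMUSG00000021613, chr13:89539796-89611652, plus strand) encodes the link protein that stabilises versican on hyaluronan. It read 2.42, 2.03 and 1.77 FPKM in CFS, and 2.30, 2.56 and 2.15 FPKM in CSS. It read 2.23, 2.01 and 2.13 FPKM in CFA, and 0.125, 0.104 and 0.232 FPKM in CSA. The other 9 mice lay within a narrow band, and CSA mice lay far below it, at 15, 13 and 21 recovered fragments. The log2 fold change was -3.17 ± 0.23 SE against CFA (adjusted p = 3.19e-06, limma) and -3.29 ± 0.23 against CSS (adjusted p = 1.65e-06).

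Vcan (ENSMUSG00000021614, chr13:89655312-89742509, minus strand) encodes versican and lies 43659 bp from Hapln1. It read 8.57, 6.38 and 7.74 FPKM in CFS and 12.8, 8.03 and 11.1 FPKM in CSS. It read 9.44, 12.2 and 7.21 FPKM in CFA and 9.61, 8.00 and 16.2 FPKM in CSA. The CSA mice overlapped those of CFA and CSS, with mouse 03 highest of all 12. The log2 fold change of CSA against CFA was 0.19 with a 95% interval of -0.43 to 0.81 (adjusted p = 0.616, limma), and its sign turned to -0.10 without CSA mouse 03. These neighbours parted in CSA, with Vcan FPKM 3.14 to 6.07 times Hapln1 FPKM in CFS, CSS and CFA and 69.7 to 77.0 times in CSA (no test).

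Tnfaip6 (ENSMUSG00000053475, chr2:52038009-52056686, plus strand) is induced by inflammatory cytokines, and its secreted product modifies hyaluronan. It read 1.297, 1.22 and 0.949 FPKM in CFS and 1.10, 1.86 and 0.699 FPKM in CSS. It read 1.58, 2.81 and 1.13 FPKM in CFA and 3.37, 2.84 and 5.08 FPKM in CSA. The CSA mice were above all others, but CFA mouse 72 came close to CSA mouse 02. The saline values rest on 26 to 59 recovered fragments a mouse. The log2 fold change was 1.04 ± 0.39 SE against CFA, under the fold limit and with an adjusted p just over 0.05 (95% interval 0.19 to 1.89, adjusted p = 0.0507, limma; 0.0173 to 0.182 over the alternatives). Against CSS it was 1.60 ± 0.39 (adjusted p = 0.00553) and was called, though without CSA mouse 03 or CSS mouse 56, or with a pseudocount of 1 (1.11), it came under the fold limit.

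Cd44 (ENSMUSG00000005087, chr2:102811141-102901665, minus strand) encodes the receptor through which many cells grip hyaluronan. It read 4.85, 4.87 and 5.52 FPKM in CFS and 8.13, 7.45 and 6.50 FPKM in CSS. It read 6.71, 12.5 and 5.19 FPKM in CFA and 31.9, 28.2 and 38.8 FPKM in CSA. No CSA mouse came near the others, and every CSS mouse was above every CFS mouse. The log2 fold change was 2.09 ± 0.26 SE against CFA (adjusted p = 0.000107, limma) and 2.14 ± 0.26 against CSS (adjusted p = 6.75e-05). The smaller CSS against CFS difference was 0.52 with a 95% interval of -0.06 to 1.11 (adjusted p = 0.841). Cd44 is expressed by leukocytes as well as vessel wall cells, and macrophage, neutrophil and T cell markers (1.06 to 3.26 summed FPKM in CFA, 31.6 to 44.4 in CSA) moved with it. All 8 T cell markers met the level limit only with CSA libraries, so their being called higher is no support.

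**Figure D2:**
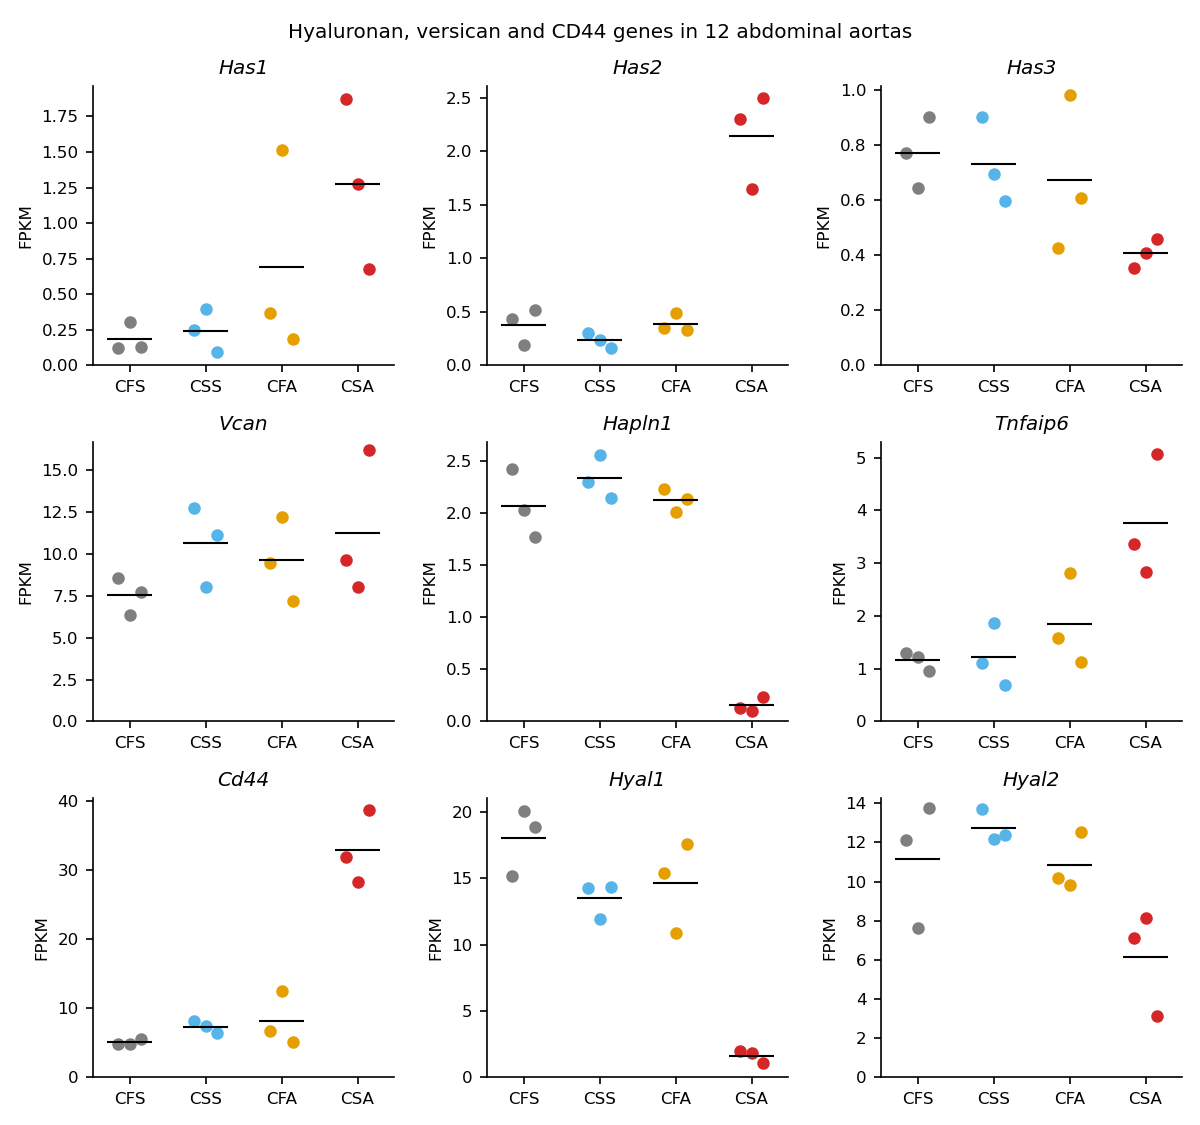
FPKM of the 9 genes in each mouse (points), by group, with the group mean as a line and a separate linear axis from 0 for each gene. The 3 CSA mice stand clear of all others for Has2, Hapln1, Cd44 and Hyal1, while for Vcan 2 of them lie among the others and mouse 03 is above all.

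Of the hyaluronidases, Hyal1 was called lower in CSA and Hyal2 was not called. Hyal1 (ENSMUSG00000010051, chr9:107576927-107581710, plus strand) encodes the lysosomal enzyme. It read 15.2, 20.1 and 18.9 FPKM in CFS and 14.3, 11.9 and 14.3 FPKM in CSS. It read 15.4, 10.9 and 17.6 FPKM in CFA and 2.01, 1.86 and 1.07 FPKM in CSA. Every CSA mouse was below every other mouse, and the CSS mice were also below the CFS mice. The log2 fold change was -3.09 ± 0.24 SE against CFA (adjusted p = 4.79e-06, limma) and -3.002 ± 0.24 against CSS (adjusted p = 3.69e-06), while CSS against CFS gave -0.41 with a 95% interval of -0.94 to 0.12 (adjusted p = 0.915). Hyal1 shares 51.9% of its exonic bases with Naa80 and Hyal3 on the same strand, so its fragments could have been divided or dropped. Naa80 averaged 14.5 ± 4.62 FPKM (SD, n = 3) in CFA and 5.36 ± 0.342 in CSA, and Hyal3 averaged 0.152 and 0.140 FPKM.

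Hyal2 (ENSMUSG00000010047, chr9:107567945-107572779, plus strand), 4147 bp upstream of Hyal1, encodes the enzyme anchored at the cell surface. It read 12.1, 7.65 and 13.7 FPKM in CFS and 13.7, 12.2 and 12.4 FPKM in CSS. It read 10.2, 9.83 and 12.5 FPKM in CFA and 7.12, 8.16 and 3.11 FPKM in CSA. The CSA mice were below CFA and CSS but overlapped CFS, with CSA mouse 03 well under the others. Hyal2 fell by 0.92 ± 0.32 SE on the log2 scale against CFA (adjusted p = 0.0422, limma), short of the fold limit, and without CSA mouse 03 the value was -0.50 (adjusted p = 0.0818). Over 17 alternatives its adjusted p ran from 0.0183 to 0.128 and stayed under 0.05 in 5. Against CSS it fell by 1.16 ± 0.32 (adjusted p = 0.0128).

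As a description with no test, Hyal1 plus Hyal2 FPKM was 18.1 to 31.3 times the synthase sum in saline mice, 6.94 to 26.6 times in CFA and 1.15 to 3.01 times in CSA. Hyal1 was 0.977 to 2.63 times Hyal2 in CFS, CSS and CFA and 0.228 to 0.344 times in CSA.

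Of the 8 tested members, 4 were called in CSA against CFA, Has2 and Cd44 higher and Hapln1 and Hyal1 lower, where 17.2% of all tested genes were called, 8.95% higher and 8.27% lower. With a pseudocount of 1 in place of 0.1, 2 of them were called beside 10.9% of all tested genes, as Has2 (1.17) and Hapln1 (-1.44) came under the fold limit while keeping adjusted p-values below 0.05 in limma. The CSA and CFA mice did not overlap for 6 of the 8, against 48.5% of all tested genes. In CSA against CSS, 6 of 8 were called, the 4 above with Tnfaip6 and Has1 higher, against 20.3% of all genes, 10.9% higher and 9.36% lower (with a pseudocount of 1, 3 members beside 13.1% of all genes, without Has1, Has2 and Tnfaip6), and 7 of 8 did not overlap, against 55.4%. CSA is shared by both of these comparisons. The median log2 fold change over the tested members in CSA against CFA was 0.62, from -3.17 to 2.19, beside -0.04 over all tested genes. Because Has1 and Has2 entered the test through their high groups, these counts describe the tested members and not the set as chosen.

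In CSS against CFS, 0 of 8 members were called by limma, beside 0.0136% of all tested genes, and 0 had an unadjusted p under 0.05, beside 6.3%. Cd44 and Hyal1 were the 2 members whose CSS and CFS mice did not overlap, a share near the 20.4% of all tested genes. In CFA against CFS, 0 of 8 were called by limma, beside 0.0273% of all genes, 0 had an unadjusted p under 0.05 (9.42% of all genes) and 0 were without overlap, against 20.2% of all genes. The intervals remained wide for Has1 (1.13, from -0.34 to 2.61), and the Cd44 difference of 0.57 had an interval of -0.01 to 1.16. With each mouse left out in turn, the CFA against CFS difference ranged from 0.42 to 1.66 for Has1 and from 0.22 to 0.84 for Cd44.

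**Figure D3:**
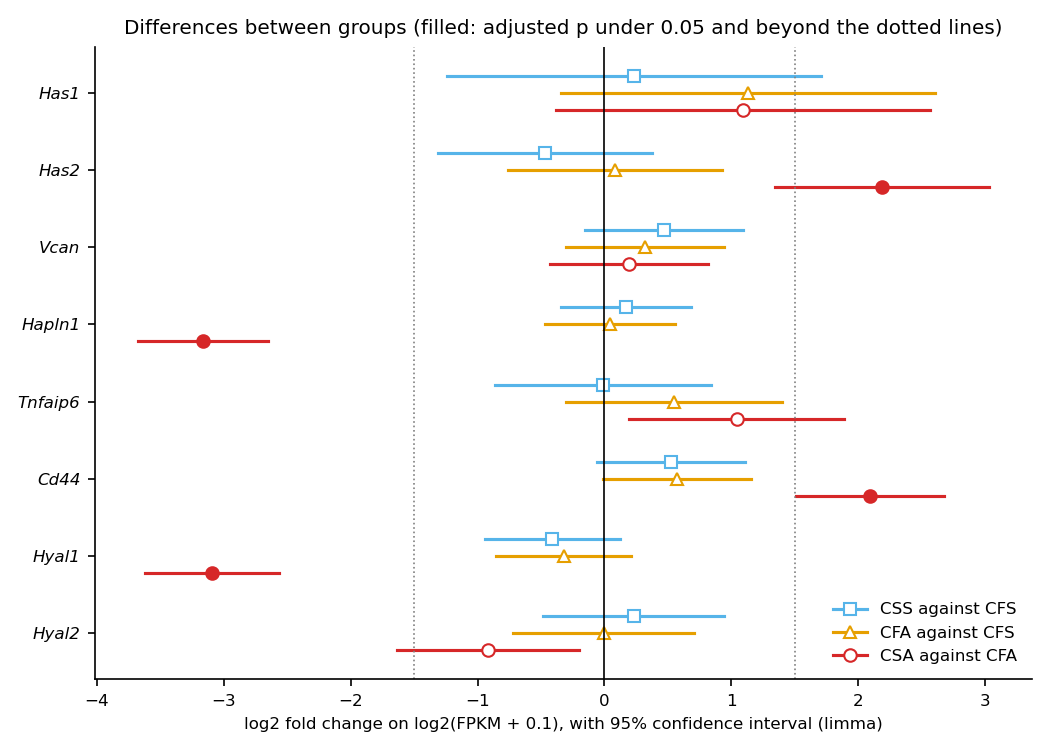
Log2 fold changes (points) with 95% confidence intervals (lines) from limma for the 8 tested genes in 3 comparisons, filled where called; dotted lines mark the fold limit of 1.5. Of the 3 comparisons shown, filled points occur in CSA against CFA alone, and not in CSS against CFS or CFA against CFS. They lie to the right for Has2 and Cd44 and to the left for Hapln1 and Hyal1.

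Whether the genotype difference itself changed with Ang II was tested as an interaction, the CSA against CFA difference minus that of CSS against CFS. It was called for Hapln1 (-3.34 ± 0.33 SE, adjusted p = 7.41e-05), Hyal1 (-2.68 ± 0.34, adjusted p = 0.000321), Has2 (2.66 ± 0.54, adjusted p = 0.00444) and Cd44 (1.57 ± 0.37, adjusted p = 0.0102) by limma, 4 of 8 members beside 15.2% of all tested genes, 7.89% higher and 7.31% lower. Has2 is among these 4 although it met the level limit only through CSA, the group where it was high, so the count is a description of the tested members. Cd44 lay just over the fold limit, and it came under it without CSS mouse 56, CFA mouse 71 or 74, or CSA mouse 03, with values of 1.301 to 1.926 over the mice left out. With a pseudocount of 1 Has2 came under it too, at 1.32 (adjusted p = 0.000985), and Hapln1 was -1.56. For Hyal2 the interaction was -1.15 with a 95% interval of -2.16 to -0.14 (adjusted p = 0.0899), and for Tnfaip6 1.06 with an interval of -0.15 to 2.26 (adjusted p = 0.185). Has1 (0.86, interval -1.22 to 2.95) and Vcan (-0.28, interval -1.16 to 0.60) did not pass the test either.

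Some mice were extreme for many members at once. CFA mouse 72 had the highest CFA value for Has1, Has2, Has3, Vcan, Cd44 and Tnfaip6 and the lowest for Hapln1, Hyal1 and Hyal2. Its cell division markers (Mki67 and others) summed to 23.8 FPKM, against 14.0 and 3.15 FPKM in mice 71 and 74. CSA mouse 03 had the highest CSA value for 6 members and the lowest for Has1, Hyal1 and Hyal2. Without CSA mouse 03 the same 4 members were called against CFA, beside 16.2% of all tested genes.

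Genes whose profile over the 12 libraries was most like that of a member were named by the root mean square difference between mean-centred log2(FPKM + 0.1) values, where a smaller value is closer. Among the closest were Bmper, Fam107b and Nek6 for Has2 (0.20 to 0.26), Kmo, Cers6 and Actr3b for Cd44 (0.20 to 0.23), and Smc2, Mctp1 and Kpna2 for Tnfaip6 (0.24 to 0.27). Others were Pkp4, Dmd and Cdh13 for Hapln1 (0.18 to 0.19), Slc25a23 and Tnxb for Hyal1 (0.16 and 0.19), and Csad, Sh3glb2 and Esam for Hyal2 (0.13 to 0.17). For Vcan, Serpinb8 and Gm20075 were close (0.16 and 0.19). Has1 had no close match, its nearest being Galnt6, Aurka and Incenp (0.45 to 0.48). Between members, Has2 and Cd44 were 0.45 apart and Hapln1 and Hyal1 0.46 apart, with many other genes closer. Of 14675 genes ranked by closeness, Cd44 was number 187 for Has2, and Has2 number 313 for Cd44. Hyal1 was number 186 for Hapln1, and Hapln1 number 194 for Hyal1. All these points share their libraries and the same group differences.

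The other genes of hyaluronan turnover gave a mixed picture in CSA against CFA. Of the enzymes that supply the sugar precursors, 0 of 7 tested genes were called, beside 17.2% of all tested genes. Their median log2 fold change was 0.28. Ugdh, which makes UDP-glucuronic acid, rose by 0.51 ± 0.16 SE (adjusted p = 0.0298, limma), below the fold limit, from 8.94 ± 0.804 FPKM (SD, n = 3) in CFA to 13.0 ± 3.36 FPKM in CSA. Gfpt2, of the hexosamine pathway, had a difference of 0.39 (adjusted p = 0.225).

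Of 5 tested genes for breakdown beside Hyal1 and Hyal2, 1 was called higher and 0 lower (8.95% and 8.27% of all tested genes), with a median of 1.14. Cemip, which encodes a hyaluronan-binding protein needed for hyaluronan degradation outside lysosomes, rose by 3.65 ± 0.55 SE (adjusted p = 0.000320, limma), from 0.106 ± 0.0978 FPKM in CFA to 2.41 ± 0.873 FPKM in CSA. No library outside CSA held 1 FPKM of Cemip, so it met the level limit only through the group where it was high.

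Among 10 tested receptors and binding proteins, 1 was called higher and 3 lower, beside 8.95% and 8.27% of all tested genes, with a median of -0.87. The share called higher is near that of all genes. Ptx3, whose product cross-links hyaluronan together with TSG-6, rose by 2.76 ± 0.41 SE (adjusted p = 0.000284, limma), from 0.740 ± 0.487 to 5.11 ± 1.11 FPKM, and met the level limit in only 1 library outside CSA. Itih3, a heavy chain of inter-α-inhibitor, fell by 1.92 ± 0.26 (adjusted p = 0.000181), from 2.60 ± 0.710 to 0.618 ± 0.205 FPKM. The other called genes, named after their values were seen, were the inter-α-inhibitor family genes Itih5 (-1.78) and Itih4 (-1.54).

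Of the other lecticans and link proteins only Acan, the gene of aggrecan, passed the level limit, among 6 listed. It had a difference of 1.06 ± 0.47 SE (adjusted p = 0.0929, limma), from 2.44 ± 2.22 FPKM in CFA to 4.04 ± 0.359 FPKM in CSA. Among 9 tested versican proteases and partners, 0 were called, beside 17.2% of all tested genes. Their median was 0.03, over differences of both signs. The aggrecanase gene Adamts4 differed by 1.24 ± 0.46 (adjusted p = 0.0514), while Adamts1, whose product also cleaves versican, fell by 1.21 ± 0.31 (adjusted p = 0.0101), from 70.3 ± 23.4 to 29.45 ± 4.80 FPKM.

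Genes that build the chondroitin sulfate chains of versican were mostly within the fold limit, with 0 of 19 called higher (8.95% of all tested genes), 3 called lower (8.27%) and a median of -0.12. Chst3, a chondroitin 6-sulfotransferase gene, fell by 3.55 ± 0.20 SE (adjusted p = 6.88e-07, limma), from 19.2 ± 3.06 to 1.55 ± 0.275 FPKM. Ust, the uronyl 2-sulfotransferase gene, fell by 1.59 ± 0.14 (adjusted p = 1.16e-05), from 10.1 ± 0.538 to 3.31 ± 0.290 FPKM. The third was the chondroitin synthase gene Chsy3 (-1.56), named after its value was seen. Also named after its value was seen, the chondroitin 4-sulfotransferase gene Chst11 rose by 1.48 ± 0.14 (adjusted p = 1.5e-05), just under the fold limit, from 4.49 ± 0.242 to 12.7 ± 0.452 FPKM, and was called against CSS (1.58).

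CD44 partners, ligands and sheddases included 6 of 10 tested genes called higher and 0 lower, beside 8.95% and 8.27% of all tested genes, with a median of 1.61. Spp1, the gene of the CD44 ligand osteopontin, rose by 5.03 ± 0.66 SE (adjusted p = 0.000132, limma), from 20.0 ± 21.3 to 462.6 ± 114 FPKM. Cd74, which partners CD44 at the surface of antigen-presenting cells, rose by 3.12 ± 0.42 (adjusted p = 0.000162), from 189 ± 134 to 1405 ± 89.2 FPKM. Both genes are expressed by macrophages, whose markers rose in the same mice, and the part of that shift was not tested. In CSS against CFS, none of the genes of these 7 lists was called by limma, beside 0.0136% of all tested genes.

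**Figure D4:**
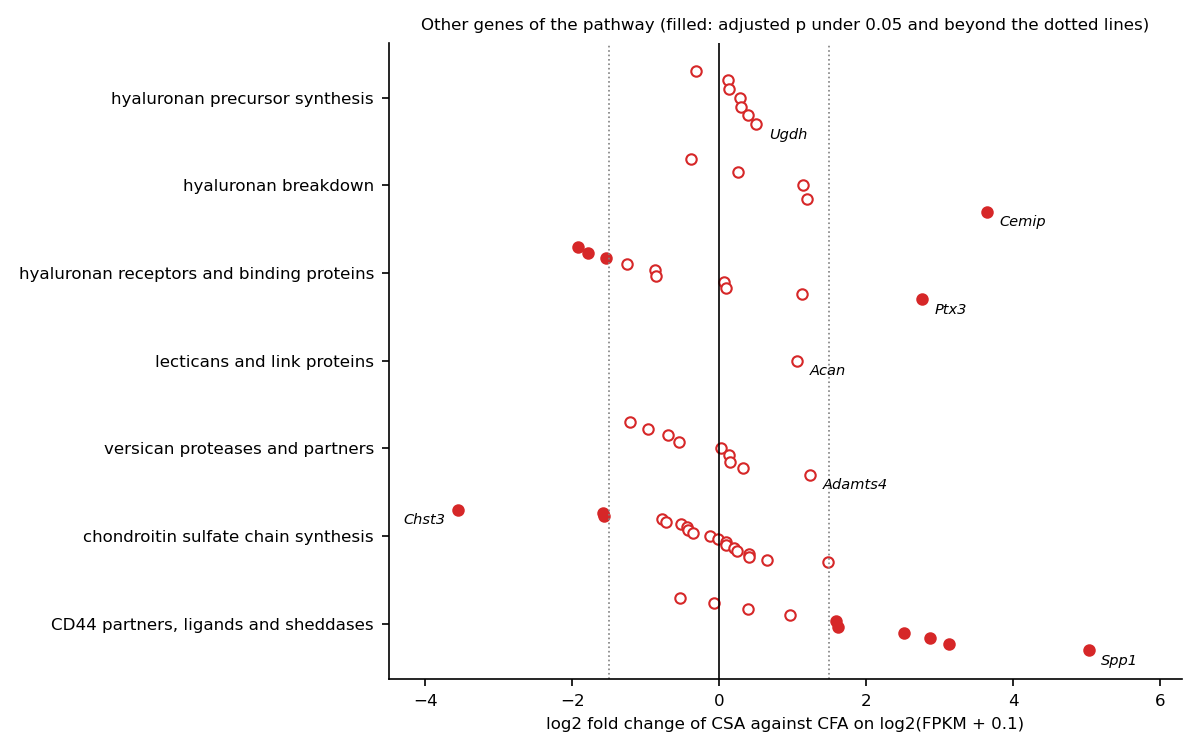
Log2 fold change of CSA against CFA (horizontal axis) for every tested gene of the 7 other pathway lists, 1 point a gene, filled where called, with the largest change of each list named. Filled points lie to the right in the CD44 list and to the left in the chondroitin sulfate list, where Chst3 lies at -3.55.

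Among the remaining marker lists in CSA against CFA, 2 of 3 tested B cell markers were called higher, where 2 of the 3 met the level limit only with CSA libraries (43.1 to 60.0 summed FPKM in CSA, 14.7 to 20.7 in CFA). For endothelial markers 1 of 6 was called higher and 3 lower (93.4 to 118 FPKM against 174 to 391.7). For adipocyte markers 0 of 7 were called higher and 2 lower, and for cell division markers 3 of 6 were called higher, where 4 of the 6 met the level limit only with CSA libraries. Lymph node stroma markers had 0 of 2 tested genes called, and mesothelial markers had no gene at the level limit, with at most 1.25 summed FPKM in any mouse. All these counts stand beside 8.95% of all tested genes called higher and 8.27% called lower. At 0 in all 3 mice of a group were Ly6g and Ccl19 in CFS and Ccl19 and Madcam1 in CSS.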

How the data were processed

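Poly(A)-selected RNA from 12 abdominal aortas was sequenced as paired 150-base reads. The authors deposited FPKM per gene and library. The submitters' processing notes name HISAT2 2.0.5, StringTie 1.3.3b, featureCounts 1.5.0-p3 and mm10, without roles. The annotation release is not given in the sources used here. Groups and mouse numbers came from the sample titles, and 0 value columns were left without a sample. Of 55092 rows, 560 carried no Ensembl identifier. These stayed out of the fragment recovery and of the choice by symbol. They were not removed before the level limit and the fit.

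The study's count test could not be run on FPKM, so log2(FPKM + 0.1) was fitted with limma 3.58.1 in R 4.3.3 (all 12 libraries, 4 group means, trend and robust moderation) over 14676 genes with at least 1 FPKM in 3 libraries. Calls needed a Benjamini-Hochberg adjusted p under 0.05 and a log2 fold change over 1.5, the fold limit of the study. FPKM times exon length gave whole fragments, within 0.05, for 98.0% to 98.5% of values under 100 fragments. The deposited values were already scaled between libraries. Their precision is limited by these fragments, and by 3 mice a group. The fit was tested on simulated data. Gene positions follow GENCODE M21 on GRCm38, and Python 3.11.15 was used for summaries.

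The members and gene lists were chosen with earlier results of these data known. Named genes are the members, the 2 largest changes of each pathway list and the 3 most alike genes per member, except that a few of these are not reported here. Alternatives were another pseudocount, no level limit, scaling each library to the same sum, plain moderation, fits on the groups compared, no fold limit and leaving out each mouse. Median-of-ratios scaling gave the same factor, 1.0135, for every library. It therefore moved values only slightly, through the pseudocount and the level limit. With it 14624 genes were tested and Hapln1 was -3.16 in CSA against CFA. That scaling is not counted among the alternatives.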

Additional observations from a re-analysis of the deposited data

Results flagged for a closer look

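For 4 members the difference between genotypes under Ang II differed from that under saline, by the interaction term in limma. Its value was 1.57 for Cd44, -2.68 for Hyal1, -3.34 for Hapln1 and 2.66 for Has2 on the log2 scale. Has2 met the level limit of the test only through CSA, the group where it was high. With a pseudocount of 1 the value for Has2 was 1.32 and under the fold limit. Groups of 3 mice were not tested for a mouse far from the others.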

How the results depend on the processing

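No paired analysis was possible because the groups share no mouse numbers. With a pseudocount of 1, 2 members were called in CSA against CFA, 3 in CSA against CSS and 3 in the interaction, where Has2 (1.32) came under the fold limit, beside 1601, 1918 and 1610 of all 14676 genes. Leaving out each mouse in turn gave 4 to 5 called members in CSA against CFA, beside 15.7% to 18.0% of all tested genes. It gave 4 to 6 in CSA against CSS (19.2% to 21.4% of all genes) and 3 to 4 in the interaction (13.3% to 15.8%). In the saline and CFA against CFS comparisons it gave 0, beside at most 0.109% and 0.845% of all genes. The Ccn2 difference ran from -1.71 to -1.23 in CSA against CFA. Sign changes concerned values that were never called. With each mouse left out, the log2 fold change ranged from -0.10 to 0.40 for Vcan in CSA against CFA and from -0.25 to 0.25 in CSA against CSS. In CSS against CFS it ranged from -0.0786 to 0.60 for Has1, -0.35 to 0.30 for Tnfaip6 and -0.0178 to 0.40 for Hyal2. In CFA against CFS it ranged from -0.25 to 0.30 for Has2, -0.0584 to 0.16 for Hapln1 and -0.26 to 0.16 for Hyal2. Tnfaip6 in CSS against CFS was 0.0133 with a pseudocount of 1 and 0.0432 with every library scaled to the same sum, and Hyal2 in CFA against CFS was 0.00161 with that scaling. The cause of these changes was not tested. By adjusted p under 0.05 alone, with no fold limit, 116 of the members' values over all alternatives in CSA against CFA kept their sign and side of that threshold, 12 fell short of it (Hyal2) and 7 newly passed it (Tnfaip6 and Has1). In CSA against CSS 130 kept both and 4 fell short (Has1), and in the interaction 127 kept both and 1 newly passed (Hyal2). Scaling to the same sum moved the median of all genes by at most 0.0777. Depth limits Has1, Has2, Has3, Hapln1 and Tnfaip6, whose lowest groups rest on few fragments.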
